A study of Mus musculus with 6 samples.

Results

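The genes of autophagy and of the lysosome form the route by which a cell digests its own proteins, lipids and organelles. A list of 32 such genes was followed in RNA from mouse brainstem motor neurons, taken by gene name as all probe sets that the platform annotation assigns to 1 of these symbols alone. A probe set is a group of short array probes that together read 1 transcript region. This gave 77 of the 45037 probe sets that are not controls, covering 30 of the 32 genes and of the 18193 genes that the array reads this way, and Cd63 and Atp6v0c were not analysed here. By role, 15 of the 32 act in making the autophagosome or carrying its cargo, 5 encode lysosomal membrane proteins, 5 encode subunits of the proton pump, 5 encode lysosomal enzymes or their activators, and 2, Tfeb and Grn, act on the lysosome as a transcription factor and a secreted growth factor precursor.

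In autophagy, a kinase complex built around ULK1 and a lipid kinase complex around Beclin 1 start a membrane sheet, small ubiquitin-like proteins of the Atg8 family are attached to it by ATG3, ATG5, ATG7, ATG12 and ATG16L1, and cargo receptors such as p62, the product of Sqstm1, tie waste to it. The closed vesicle fuses with lysosomes, whose enzymes work at the acid pH set by the vacuolar proton pump. Motor neurons are thought to depend on this route because their long axons and lack of division let misfolded protein build up, and mutant SOD1 is a misfolding protein of motor neuron disease. Microglia, the resident phagocytes, are rich in lysosomes too.

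The groups were 3 RNA samples from motor neurons of SOD1 mice and 3 from motor neurons of wild type (WT) mice, all from the brainstem and all amplified in 2 T7-based rounds. SOD1 is the gene of an enzyme that removes superoxide and is mutated in a form of motor neuron disease. The sources used here do not give the SOD1 allele, its promoter, the age and sex of the mice, the number of mice behind each sample, or the way the neurons were collected. No label states whether replicates are separate mice, and the p-values cover the spread between these 6 samples alone, which may be technical.

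The median signal lay between 267 and 315 over the 6 arrays, and a background level set from 27 bacterial control probe sets lay between 7.21 and 7.61 on the log2 scale. Of 11 motor neuron markers read, Mnx1 alone was at the background level on any array, on all 3 SOD1 arrays and 2 WT arrays, and the defining gene Isl1 averaged 15.28 on SOD1 arrays and 15.05 on WT arrays (log2 signal). Of the 10 motor neuron markers tested, 0 passed over all probe sets, 1 (Uts2) was higher and 3 (Ache, Slc18a3 and Nefm) were lower in SOD1 at an unadjusted p under 0.05, and the median difference was -0.18. Markers of other cells differed between the groups as well. The summed signal of 14 microglial markers, in log2, was 16.24 to 17.23 on SOD1 arrays and 12.74 to 15.04 on WT arrays, and that of 12 endothelial and mural markers was 12.51 to 14.30 on SOD1 arrays and 14.86 to 16.13 on WT arrays. For 10 astrocyte markers it was 17.89 to 17.92 on SOD1 arrays and 17.63 to 17.69 on WT arrays, and for 8 oligodendrocyte markers 17.81 to 17.94 on SOD1 arrays and 17.49 to 17.66 on WT arrays. Xist, read from the inactive X chromosome, was at 12.83 and 12.91 (log2 signal) on SOD1 replicates 1 and 2, at 5.71 on SOD1 replicate 3, and between 5.76 and 7.07 on WT arrays. In such bulk samples a different number of cells of a type cannot be told apart from a different amount of RNA per cell.

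Of the 77 probe sets, 66 from all 30 genes had enough signal on average over the 6 arrays to be tested, and 0 of them passed the test of SOD1 against WT (limma, Benjamini-Hochberg adjustment over 27022 probe sets, adjusted p under 0.05). Over all probe sets tested 0.185% passed, 0.0629% higher and 0.122% lower in SOD1, so fewer than 1 of 66 would match that share. The smallest adjusted p was 0.0563, for a probe set of Lamp2. At an unadjusted p under 0.05 there were 17 of 66 (25.8%), 12 higher and 5 lower in SOD1, beside 14.7% of all probe sets tested, 7.09% higher and 7.58% lower. The 3 SOD1 arrays lay wholly above the 3 WT arrays for 15 of the 66 and wholly below them for 6, in all 31.8%, beside 20.3% of all probe sets tested, 10.5% above and 9.81% below. Sets of 1 gene are not independent, and Lamp2, Laptm5 and Grn supplied 9 of the 17. With the set of highest mean signal taken for each gene, 7 of 30 (23.3%) had an unadjusted p under 0.05, 4 higher and 3 lower in SOD1. Of these 30 sets 15 had positive and 15 negative differences, with a median of -0.01. Over all 66 sets 41 were positive, with a median of 0.16. With the sets of each gene averaged, 19 of 30 genes were higher in SOD1 and 11 lower (63.3% higher). The lean to higher values was thus absent with the set of highest mean signal but present with gene means. These shares describe the list and support nothing about it as a whole.

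The groups of genes had unlike medians of the log2 fold change, SOD1 minus WT. The median was 1.20 over the 10 tested probe sets of lysosomal membrane genes, 0.97 over the 4 of Grn and Tfeb, 0.24 over the 10 of enzymes and activators, 0.13 over the 8 of the proton pump, and 0.0047 over the 34 of autophagosome genes, beside -0.01 over all probe sets tested. Most of the membrane sets were of Lamp2 and Laptm5, and all but 1 of the 4 were of Grn. In the sets of highest mean signal, Cd68 was at 3.41 ± 0.91, Laptm5 at 1.73 ± 0.55, Lamp1 at 0.0043 ± 0.11 and Lamp2 at -1.31 ± 0.23. Grn was at 0.75 ± 0.30 and Tfeb at -1.08 ± 0.88. Since 16 was added to each signal, fold changes of dim probe sets are understated. All are given ± SE with n = 3 arrays per group.

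**Figure D1:**
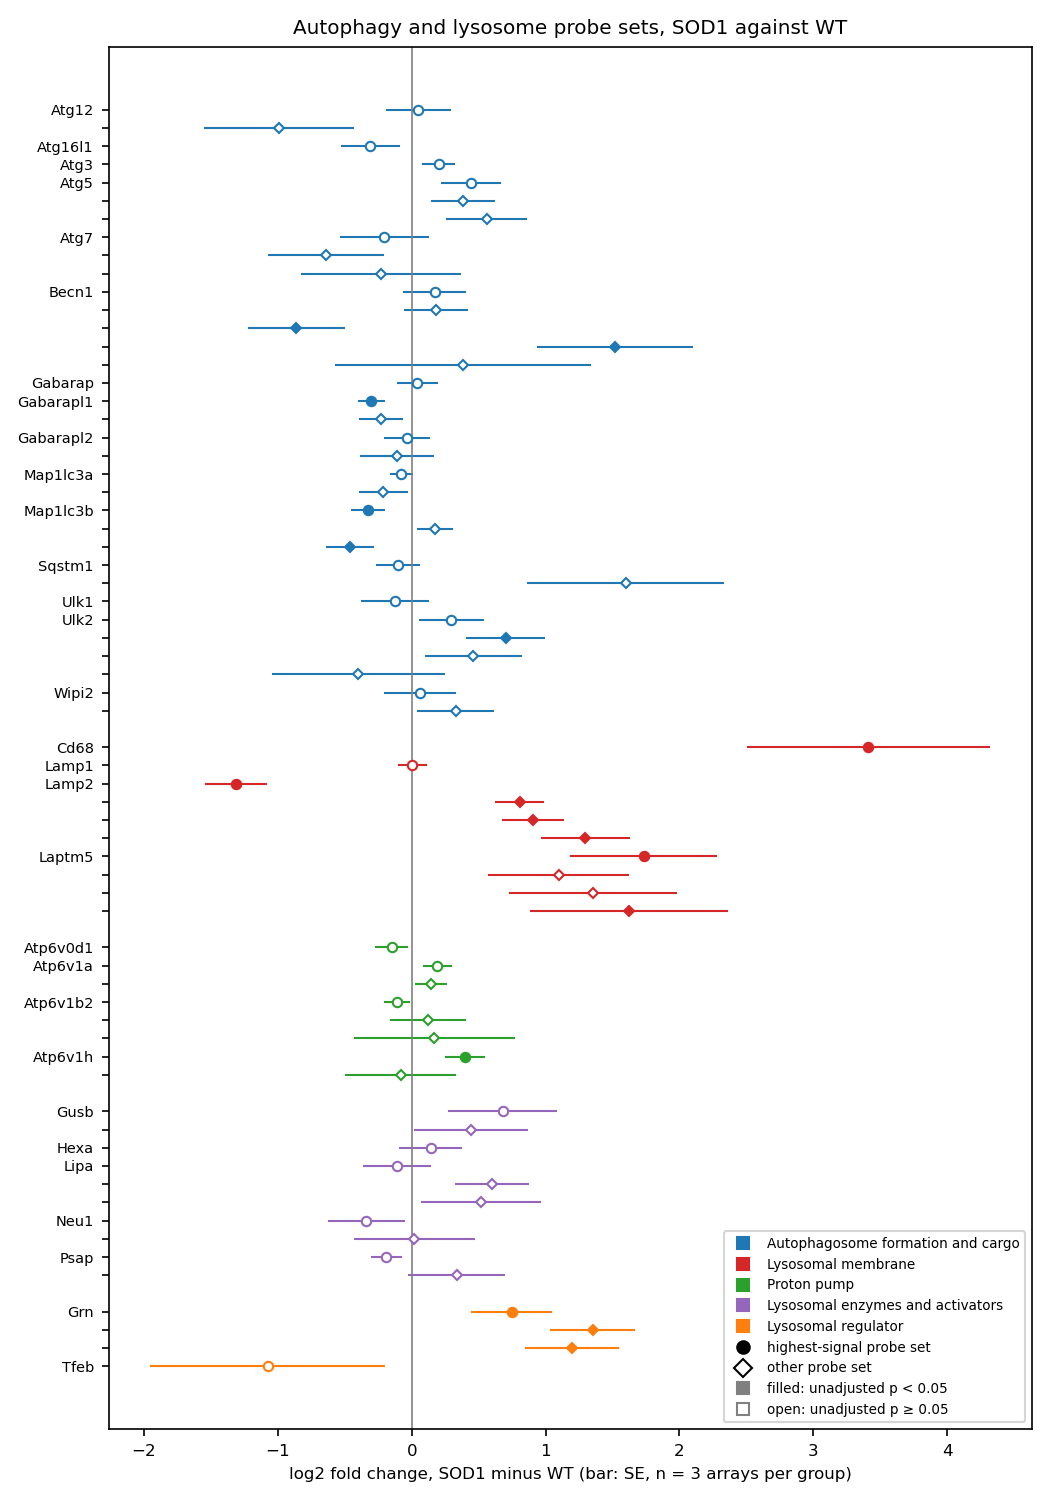
The log2 fold change, SOD1 minus WT, of the 66 probe sets tested, down the page by role and gene, with bars for the SE (n = 3 arrays per group). Circles are the set of highest mean signal of each gene, diamonds the other sets, and filled symbols have an unadjusted p under 0.05. Most autophagosome and pump sets lie near 0, the 4 Lamp2 sets lie on both sides of it, at -1.31 and at 0.81 to 1.30, and Cd68 lies farthest to the right at 3.41.

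Lamp2 encodes an abundant lysosomal membrane glycoprotein needed for lysosomes to fuse with autophagosomes. Its transcript is spliced to 3 alternative last exons, and 1 of the products, LAMP-2A, is the receptor for chaperone-mediated autophagy. The gene had 4 probe sets on the array, all tested, and they went in opposite directions. The 1 lower set, 1434503_s_at, carries a suffix for probes that match more than 1 transcript, and it is left out of the alternative without shared probe sets, so the lower direction rests on it alone. The set 1434503_s_at read 12.84, 12.98 and 12.61 on SOD1 replicates 1 to 3, against 14.60, 13.86 and 13.90 on WT replicates 1 to 3 (log2 signal), a difference of -1.31 ± 0.23 or 2.49-fold lower in SOD1 (limma, adjusted p = 0.0563). All 3 SOD1 arrays were below all 3 WT arrays. The set passed the threshold in 5 of the 17 alternative settings that gave it a value, with adjusted p between 0.0301 and 0.344 over all 17.

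The other Lamp2 sets showed the reverse. The set 1416344_at read 13.78, 13.82 and 13.84 on SOD1 arrays, against 13.14, 12.79 and 13.09 on WT arrays, a difference of 0.81 ± 0.18 (limma, adjusted p = 0.111). The set 1428094_at read 13.52, 13.73 and 13.45 on SOD1 arrays, against 12.92, 12.19 and 12.87 on WT arrays, a difference of 0.91 ± 0.23 (limma, adjusted p = 0.137). The set 1416343_a_at read 10.24, 10.36 and 10.66 on SOD1 arrays, against 9.03, 9.06 and 9.29 on WT arrays, a difference of 1.30 ± 0.33 (limma, adjusted p = 0.137). In each of these 3 sets the SOD1 arrays lay wholly above the WT arrays, and none of the 4 sets passed the test over all probe sets. No reading of the 4 sets was at the background level.

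Set against one another within each array, the Lamp2 probe sets lay over 2 log2 units apart between the groups. The set 1434503_s_at minus 1416344_at gave -0.94, -0.85 and -1.24 on SOD1 arrays, against 1.46, 1.06 and 0.82 on WT arrays, which is -2.12 for SOD1 minus WT. Against 1428094_at this was -2.22, and against 1416343_a_at it was -2.61. With the deposited signals and no normalisation these were -2.11, -2.20 and -2.53. An exact two-sided permutation test gave p = 0.1 for each, the smallest that 3 arrays against 3 allow, and the pairs were chosen after their values were seen. In each pair the groups already lay apart in opposite directions, so this outcome was fixed in advance. Lamp2 lies on the X chromosome. The part of sex in the Lamp2 differences was not tested beyond a fit with an Xist term. Xist was high on SOD1 replicates 1 and 2 alone. The SOD1 differences of that fit, for every gene, therefore rested mostly on SOD1 replicate 3. With the Xist signal as a term in the fit, the 4 differences were -1.53, 0.83, 0.82 and 1.52, with adjusted p of 0.0776, 0.169, 0.268 and 0.155 (limma). Which of the spliced forms each set reads was not tested, since probe sequences were not used here.

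**Figure D2:**
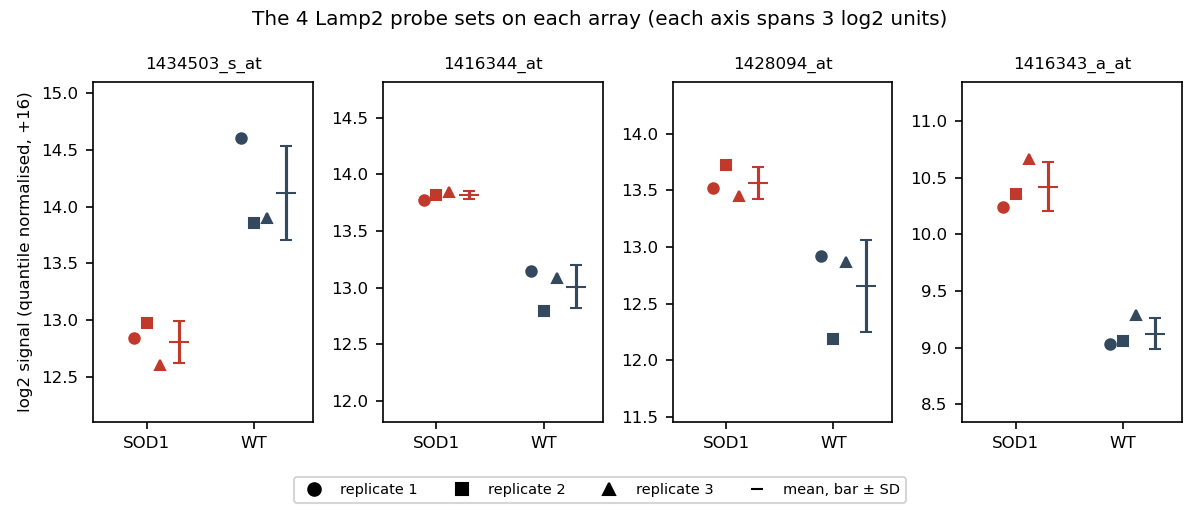
Signal of the 4 Lamp2 probe sets on each array (log2, quantile normalised, 16 added), SOD1 left and WT right, with a symbol for each replicate and the mean ± SD (n = 3). Each axis spans 3 log2 units. In the first panel the 3 SOD1 arrays lie below the 3 WT arrays, and in the other 3 panels they lie above.

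Lamp1 encodes the other major membrane glycoprotein of lysosomes. It read 16.168, 16.258 and 16.028 on SOD1 arrays, against 16.163, 15.998 and 16.281 on WT arrays, a difference of 0.0043 ± 0.11 (limma, adjusted p = 0.990). The groups overlapped fully. The difference was 0.13 with the deposited values and 0.24 with median centring.

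Cd68 and Laptm5 encode lysosomal membrane proteins found mainly in macrophages and other blood-derived cells. Cd68 read 12.60, 10.80 and 9.75 on SOD1 replicates 1 to 3, against 9.67, 7.48 and 5.76 on WT replicates 1 to 3, a difference of 3.41 ± 0.91 or 10.6-fold (limma, adjusted p = 0.143). The groups did not overlap, but SOD1 replicate 3 and WT replicate 1 were almost level, and WT replicate 3 was at the background level. The difference lay between 2.46 and 4.43 when 1 array was left out, and it was 2.07 with the Xist signal as a term. Laptm5, in its set of highest mean signal, read 13.55, 11.88 and 12.32 on SOD1 arrays, against 11.41, 11.61 and 9.54 on WT arrays, a difference of 1.73 ± 0.55 (limma, adjusted p = 0.192). The groups again did not overlap. Of its 3 other tested sets, 1 also had an unadjusted p under 0.05, and their differences were 1.10 ± 0.53, 1.36 ± 0.63 and 1.62 ± 0.74. The set under that limit was the one at 1.62 (limma, unadjusted p = 0.0498). In that set the groups overlapped, and SOD1 replicate 2 was at the background level. In 2 of these 3 sets the background level was reached by 2 WT arrays, and a last set, too dim to be tested, had a difference of -0.49. Every tested Laptm5 set carries a suffix for shared probes and is left out of the alternative without shared probe sets. The dim last set carries no such suffix, so the higher direction rests on shared sets alone. The Laptm5 difference of 1.73 was 1.08 without WT replicate 3 and at most 2.12 with any other array left out.

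Grn encodes progranulin, a precursor that is delivered to lysosomes, there cut into granulins, and made by microglia as well as by neurons. All 3 of its probe sets were higher in SOD1 at an unadjusted p under 0.05, and none passed the test over all probe sets. The set of highest mean signal read 15.38, 14.28 and 14.43 on SOD1 arrays, against 14.48, 13.89 and 13.48 on WT arrays, a difference of 0.75 ± 0.30 (limma, adjusted p = 0.287), with WT replicate 1 above SOD1 replicates 2 and 3. It was 0.41 without SOD1 replicate 1 and 1.02 without WT replicate 1. The other sets differed by 1.35 ± 0.32 (limma, adjusted p = 0.117) and 1.20 ± 0.35 (limma, adjusted p = 0.166), and in both the groups did not overlap. The sets at 0.75 and 1.35 carry a suffix for shared probes, and the set at 1.20 does not. With the Xist signal as a term the 3 were at 0.46, 0.99 and 0.72.

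Microglial markers also read higher on SOD1 arrays, and their part in the results on Cd68, Laptm5 and Grn was not tested. Tyrobp, a signalling adaptor of microglia, read 14.81, 14.23 and 13.40 on SOD1 arrays, against 10.97, 9.77 and 8.26 on WT arrays. Cd68 and 1 of the Grn sets put the 6 arrays in the same order as Tyrobp, an order shared by 73 of the 27022 probe sets tested (0.270%) and by 5 of the 13 microglial markers tested. Both of these counts include Tyrobp itself. No Laptm5 set and neither of the other Grn sets had this order. It was not particular to microglial markers. Of the astrocyte markers, Gfap alone had it, at 14.07, 13.44 and 12.82 on SOD1 arrays, against 11.05, 10.11 and 9.03 on WT arrays. Of the 13 microglial markers tested, 13 had a positive difference, 11 had an unadjusted p under 0.05, and 4 passed over all probe sets. Of the 14 read, 5 were at the background level on at least 1 array.

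**Figure D3:**
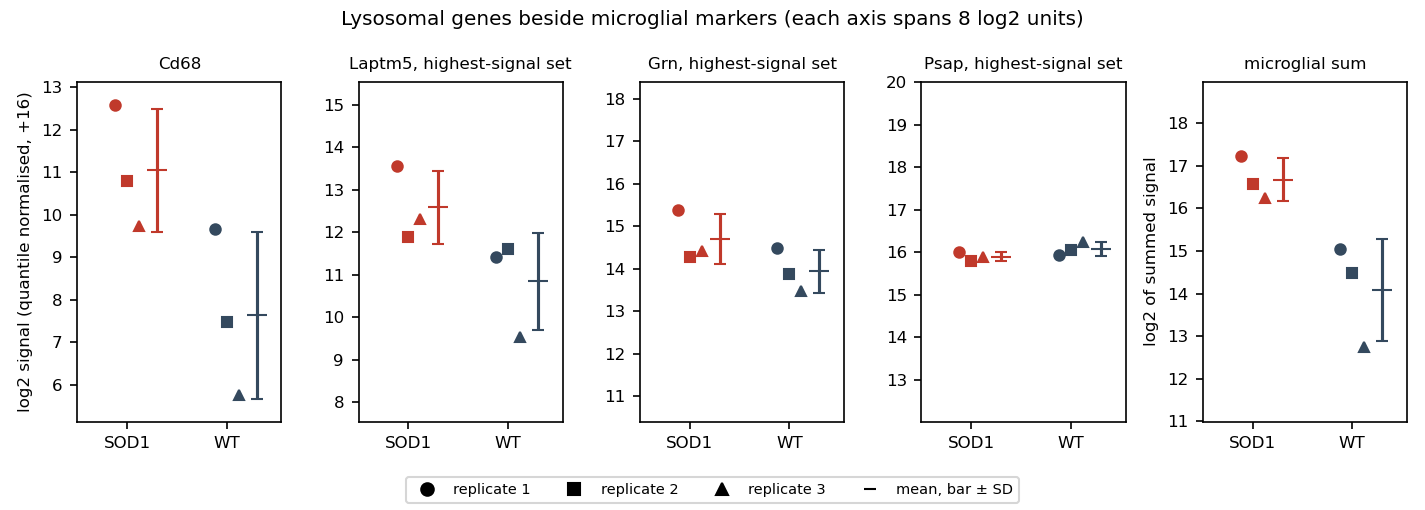
Signal of Cd68, Laptm5, Grn and Psap (log2, set of highest mean signal) and the log2 of the summed signal of 14 microglial markers on each array, SOD1 left and WT right, with the mean ± SD (n = 3). Each axis spans 8 log2 units. SOD1 replicate 1 is the highest array for Cd68, Laptm5, Grn and the microglial sum, WT replicate 3 is the lowest for all of these, and Psap stays within 1 log2 unit over the 6 arrays.

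The stretches before the starts of Cd68, Laptm5 and Grn, all with higher readings on SOD1 arrays, are shown beside that of Lamp1, whose difference was close to 0. The windows are the 250 bases before the RefSeq start on GRCm38.p6, written on the gene's strand, and Lamp1 lies at chr8:13158911-13159160 (+), Cd68 at chr11:69666171-69666420 (-), Laptm5 at chr4:130913066-130913315 (+) and Grn at chr11:102430257-102430506 (+). Capitals mark CACGTG, the core of the site bound by TFEB and its relatives, and GAGGAA, the purine-rich core bound by the myeloid factor PU.1, on either strand.
Lamp1: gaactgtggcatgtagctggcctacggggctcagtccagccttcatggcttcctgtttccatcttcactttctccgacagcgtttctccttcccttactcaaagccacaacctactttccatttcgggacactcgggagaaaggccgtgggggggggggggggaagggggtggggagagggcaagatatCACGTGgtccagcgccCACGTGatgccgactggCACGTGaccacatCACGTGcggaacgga
Cd68: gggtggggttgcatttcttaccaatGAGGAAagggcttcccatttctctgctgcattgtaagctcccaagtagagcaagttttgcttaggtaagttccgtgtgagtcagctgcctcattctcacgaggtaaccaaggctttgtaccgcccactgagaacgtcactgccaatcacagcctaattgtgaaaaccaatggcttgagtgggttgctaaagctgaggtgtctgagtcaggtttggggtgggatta
Laptm5: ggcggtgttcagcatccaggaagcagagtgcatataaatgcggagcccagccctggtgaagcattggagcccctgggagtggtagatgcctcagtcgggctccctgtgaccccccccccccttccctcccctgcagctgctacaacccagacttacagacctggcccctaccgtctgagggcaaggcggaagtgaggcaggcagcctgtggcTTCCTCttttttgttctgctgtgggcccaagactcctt
Grn: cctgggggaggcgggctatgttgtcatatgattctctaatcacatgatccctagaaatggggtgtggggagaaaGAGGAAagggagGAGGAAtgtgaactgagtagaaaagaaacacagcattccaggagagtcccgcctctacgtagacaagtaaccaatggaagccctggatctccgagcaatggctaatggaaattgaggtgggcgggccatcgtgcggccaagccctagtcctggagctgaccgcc

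The Lamp1 window held 4 copies of CACGTG and 0 of GAGGAA. The Cd68 and Laptm5 windows held 1 copy of GAGGAA each and the Grn window 2, with 0 copies of CACGTG in any of the 3. Of the 30 genes tested, 24 matched a RefSeq window. These genes have 27 windows in the table, and counts are of windows, never more than 1 with a given motif in a gene. CACGTG was in 5 of the 27, those of Atg3, Atg5, Atg7, Atp6v1a and Lamp1, beside 6.02% of 32851 windows in all. Its longer form TCACGTGA was in those of Atg3 and Atp6v1a, beside 0.785% of all. GAGGAA was in 8 of the 27, those of Atg3, Atg5, Cd68, Grn, Lamp2, Laptm5, Lipa and Psap, beside 23.3% of all, and GAGGAAGT was in 0 of the 27, beside 2.44%. None of the 5 genes with CACGTG had a probe set at an unadjusted p under 0.05. That limit was met by 14.7% of all probe sets tested, and by the set of highest mean signal in 7 of the 30 member genes (23.3%). Of the genes with GAGGAA, Cd68, Grn, Lamp2 and Laptm5 had such a set, and Atg3, Atg5, Lipa and Psap did not. A gene with several sets has more chances to hold such a set, so these few genes give no result about the motifs. The part of either motif was not tested. The motifs were searched after the expression values were known, CACGTG lies within TCACGTGA and GAGGAA within GAGGAAGT, and a match is no evidence that a factor binds.

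Tfeb encodes the transcription factor that switches on lysosomal and autophagy genes. Its 1 probe set was dim, at 9.35, 5.52 and 8.57 on SOD1 arrays, against 8.21, 8.68 and 9.78 on WT arrays, a difference of -1.08 ± 0.88 (limma, adjusted p = 0.607). SOD1 replicate 2 alone was at the background level, and without it the difference was 0.08, so the sign rested on that array.

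The 5 lysosomal enzyme and activator genes had 10 sets tested, 0 of them at an unadjusted p under 0.05. Psap encodes prosaposin, the precursor of 4 small activators of sphingolipid breakdown, and averaged 15.89 ± 0.11 on SOD1 arrays and 16.08 ± 0.16 on WT arrays (SD, n = 3). It differed by -0.19 ± 0.11 (limma, adjusted p = 0.471) in this main set, and another Psap set was at 0.34 ± 0.36. Hexa, the alpha subunit of beta-hexosaminidase, read 14.99, 14.38 and 13.99 on SOD1 arrays, against 14.27, 14.59 and 14.08 on WT arrays, a difference of 0.14 ± 0.24 (limma, adjusted p = 0.823). In both genes the groups overlapped, and with median centring the main Psap set was at 0.02. Gusb, which encodes beta-glucuronidase, was at 0.68 ± 0.41 and 0.44 ± 0.42 in its 2 sets, and in the first SOD1 replicate 1, at 11.55, stood apart from the other 5 arrays, at 9.86 to 10.25. Lipa, lysosomal acid lipase, was at -0.11 ± 0.26, 0.60 ± 0.27 and 0.52 ± 0.45, and Neu1, a sialidase, at -0.34 ± 0.29 and 0.02 ± 0.45.

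The vacuolar proton pump has a cytosolic part that splits ATP and a membrane part that moves protons. Of 8 pump sets tested, 1 had an unadjusted p under 0.05. Atp6v1a, the catalytic subunit, read 16.54, 16.52 and 16.50 on SOD1 arrays, against 16.40, 16.10 and 16.48 on WT arrays, a difference of 0.19 ± 0.11 (limma, adjusted p = 0.446). The SOD1 arrays lay just above the WT arrays, and the difference was 0.37 with the deposited values and 0.47 with median centring. Atp6v1h, a regulatory subunit, read 15.61, 15.44 and 15.93 on SOD1 arrays, against 15.14, 15.19 and 15.45 on WT arrays, a difference of 0.40 ± 0.15 (limma, adjusted p = 0.251), and it was 0.51 with the deposited values. Another Atp6v1h set was at -0.08 ± 0.41. Atp6v1b2, a nucleotide-binding subunit, was at -0.11 ± 0.10 in its main set, and Atp6v0d1, a subunit of the membrane part, was at -0.15 ± 0.13. Both of these were above 0 with median centring, at 0.11 and 0.06.

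The Atg8 family, which coats the autophagosome membrane, had small differences. Gabarapl1 read 16.55, 16.42 and 16.28 on SOD1 arrays, against 16.60, 16.82 and 16.73 on WT arrays, a difference of -0.30 ± 0.10 (limma, adjusted p = 0.212). The SOD1 arrays lay wholly below the WT arrays, but the difference was -0.13 with the deposited values and -0.02 with median centring. Map1lc3b encodes LC3B, the usual marker protein of autophagosomes, and read 15.98, 15.50 and 15.74 on SOD1 arrays, against 16.08, 16.14 and 15.97 on WT arrays, a difference of -0.33 ± 0.13 (limma, adjusted p = 0.279), with -0.21 in the deposited values and -0.11 with median centring. The groups overlapped by a narrow margin. A second set of Map1lc3b was at -0.46 ± 0.18 (limma, adjusted p = 0.264) and another at 0.17 ± 0.13. Map1lc3a was at -0.08 ± 0.09, Gabarap at 0.04 ± 0.16 and Gabarapl2 at -0.03 ± 0.17 in their sets of highest mean signal, and with median centring these were at 0.21, 0.22 and 0.09.

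**Figure D4:**
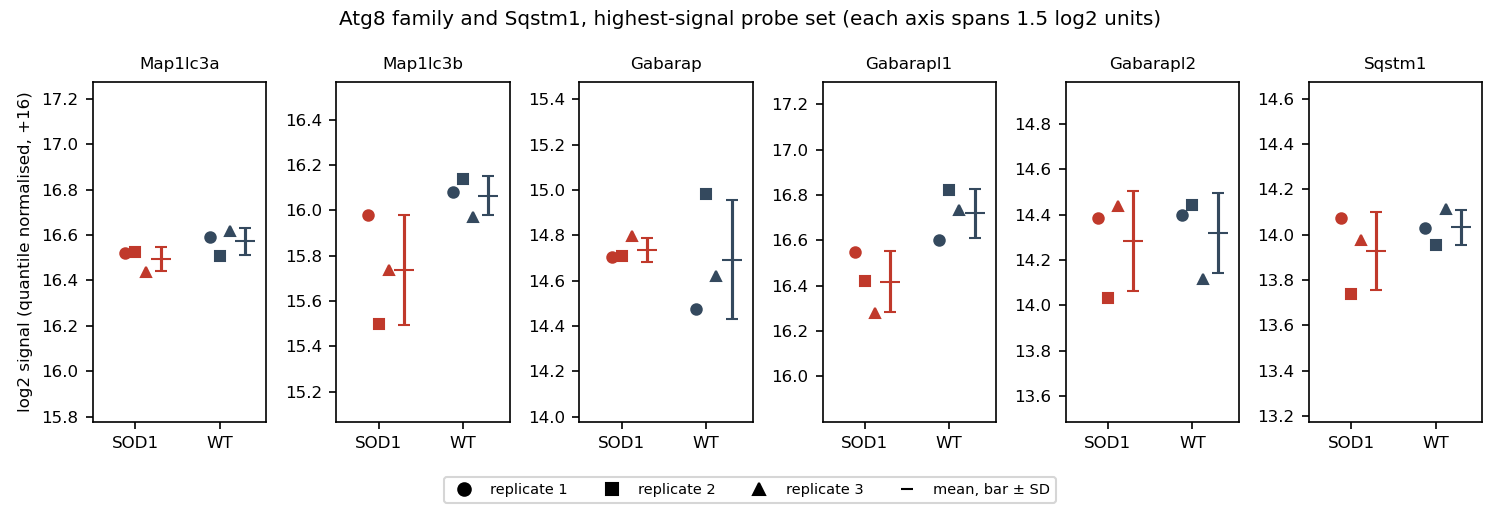
Signal of the 5 Atg8 family genes and Sqstm1 on each array (log2, set of highest mean signal), SOD1 left and WT right, with the mean ± SD (n = 3). Each axis spans 1.5 log2 units. Gabarapl1 is the gene whose SOD1 arrays all lie below the WT arrays, and in the other 5 panels the groups overlap.

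Sqstm1, the cargo receptor gene, read 14.08, 13.74 and 13.98 on SOD1 arrays, against 14.03, 13.96 and 14.11 on WT arrays, a difference of -0.10 ± 0.16 (limma, adjusted p = 0.811). The groups overlapped. A second, dim set of Sqstm1 read 8.84, 8.89 and 8.95 on SOD1 arrays, against 8.24, 8.20 and 5.43 on WT arrays, a difference of 1.60 ± 0.74 (limma, adjusted p = 0.346). WT replicate 3 was at the background level, and without it the difference was 0.66.

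Becn1, which encodes Beclin 1, read 13.21, 13.76 and 14.09 on SOD1 arrays, against 13.74, 13.42 and 13.39 on WT arrays, a difference of 0.17 ± 0.23 (limma, adjusted p = 0.774). Its 5 tested sets disagreed, since 1 was at -0.86 ± 0.36 (limma, adjusted p = 0.312) and another, with 1 WT array at the background level, at 1.52 ± 0.58 (limma, adjusted p = 0.265). Of the initiating kinases, Ulk1 was at -0.12 ± 0.25, and Ulk2 was at 0.30 ± 0.24 in its main set and at 0.70 ± 0.29 in a second (limma, adjusted p = 0.307). Of the conjugation genes, all 3 sets of Atg5 had positive differences, from 0.38 to 0.56, and Atg3, the enzyme that joins Atg8 proteins to lipid, was at 0.20 ± 0.13. Atg12 was at 0.05 ± 0.24, Atg16l1 at -0.31 ± 0.22 and Atg7 at -0.20 ± 0.33 in their main sets, and Wipi2, which brings the conjugation machinery to the membrane, was at 0.06 ± 0.27. Another tested Atg12 set was at -0.99 ± 0.56. Over all members, 21 genes had more than 1 set tested, and in 11 of them the sets had both signs.

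Other genes of the same pathways had 0 calls over all probe sets, and at an unadjusted p under 0.05 their shares lay on both sides of the 14.7% of all probe sets tested, at 12.9% for autophagy, 13.6% for membrane and sorting, 12.5% for the TFEB family and mTORC1, 20.7% for enzymes and 23.1% for the pump. Of 31 further autophagy genes tested, 1 per gene by the set of highest mean signal, 0 passed over all probe sets, and 1 was higher and 3 lower in SOD1 at an unadjusted p under 0.05, with a median of -0.19. Tecpr1, a tether of autophagosome and lysosome, was at -1.21 ± 0.25 (limma, adjusted p = 0.0938), Atg2a, a lipid transfer protein, at -0.99 ± 0.33, Atg9a, a scramblase that seeds the membrane, at -0.54 ± 0.23, and Vmp1, another scramblase, at 0.54 ± 0.19. Of 29 further lysosomal enzyme and cofactor genes, 0 passed over all probe sets, 2 were higher and 4 lower at an unadjusted p under 0.05, and the median was -0.19. Gaa, the acid glucosidase that breaks down glycogen, read 13.20, 12.74 and 13.31 on SOD1 arrays, against 14.58, 14.30 and 14.05 on WT arrays, a difference of -1.23 ± 0.21 (limma, adjusted p = 0.0563). The groups did not overlap, and the adjusted p ran from 0.0285 to 0.344 over the 17 alternatives that gave it a value, 5 of them under 0.05. This Gaa set carries a suffix for shared probes and is left out of the alternative without shared probe sets. Tpp1, a peptidase, was at -0.66 ± 0.19, Npc2, a cholesterol carrier, at 0.31 ± 0.11, and Asah1, acid ceramidase, at 0.46 ± 0.17.

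Among 13 further pump genes tested, 0 passed over all probe sets and 3 were lower at an unadjusted p under 0.05, with a median of 0.04 that became 0.21 with the deposited values and 0.32 with median centring. The 3 were Atp6v0e2 (-0.56 ± 0.12, limma, adjusted p = 0.0979), Atp6v0a1, the a subunit form of synaptic vesicles (-0.97 ± 0.23, limma, adjusted p = 0.117), and Atp6v1g2, the neuronal form of the G subunit (-0.76 ± 0.24, limma, adjusted p = 0.192). In all 3 the SOD1 arrays lay wholly below the WT arrays. The next, Atp6v1f, was at 0.24 ± 0.12. Of 22 further membrane and sorting genes, 0 passed, 1 was higher and 2 were lower at an unadjusted p under 0.05, and the median was -0.15. Gga3, a sorting adaptor, was at -0.74 ± 0.24, the mannose 6-phosphate receptor genes Igf2r and M6pr were at -0.79 ± 0.30 and 0.38 ± 0.19, and Ostm1, a partner of the lysosomal chloride exchanger, was at 0.32 ± 0.14. Of 16 genes of the TFEB family and of the nutrient-sensing kinase complex mTORC1, 0 passed, 1 was higher and 1 lower at an unadjusted p under 0.05, and the median was 0.10. The GTPase gene Rragd was at 0.59 ± 0.19 and Tfe3, a relative of Tfeb, at -0.73 ± 0.27, while Tsc1 and Rheb, an inhibitor and an activator of mTORC1, were at -0.49 ± 0.22 and 0.26 ± 0.12.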

How the data were processed

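Total RNA from motor neurons went through 2 rounds of T7 amplification, per the labels' protocols, and was read on an Affymetrix mouse array. Amplification of this kind starts at the 3' end and shortens RNA, so sets far from that end can read low. The deposited unit is a linear signal intensity for each probe set on each array. Its 2% trimmed mean was 2500.02 on each array, which is the mark of scaling to a common mean. The sources used here do not give the summarising algorithm. The number of arrays limits the precision.

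The arrays were quantile normalised, 16 was added, log2 was taken, and sets whose mean lay in the dimmest 40% were left out. SOD1 was compared with WT in limma 3.58.1 (R 4.3.3) by lmFit and a trended eBayes, two-sided, and p-values were adjusted by Benjamini-Hochberg over all 27022 kept, with a threshold of 0.05. The fit was tested on simulated data. The background level of an array is the 95th percentile of the bacterial controls. Symbols come from the platform annotation and promoter windows from RefSeq. All members are named. Values on every array are given for genes whose set of highest mean signal had an unadjusted p under 0.05, and for those fixed by role, and up to 4 genes of each further list with the smallest p are named. Members and lists were chosen with earlier results of these data known. Alternatives were the scaling, pseudocount, filter, variance model, array weights, replicate block, an Xist term, shared probe sets, gene means and each array left out. Replicate numbers gave correlations of deviations of 0.029, -0.040 and -0.014, so they were not taken as pairs. Figures were drawn with matplotlib 3.10.9.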

Additional observations from a re-analysis of the deposited data

How the results depend on the processing

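With 3 arrays in a group, the depth of the data is set by their number, and sets near the background level are the least sure. The count of member probe sets past the adjusted threshold was 0 with the deposited values, median centring, a pseudocount of 1, no variance trend, a robust trend, the Xist term, no shared probe sets, gene means and each array left out. It was 1 with a pseudocount of 64, with no filter, with a filter at percentile 60 and with array weights, in each case the Lamp2 set 1434503_s_at (adjusted p = 0.0417, 0.0497, 0.0301 and 0.0423), and 3 with the replicate block, this Lamp2 set (0.0490), Cd68 (0.00979) and 1 Grn set (0.0485). The replicate numbers were not shown to mark pairs. Over the alternatives the adjusted p ran from 0.0301 to 0.344 for that Lamp2 set and from 0.00979 to 0.409 for Cd68. Among the member sets and the further genes named above, none with an unadjusted p under 0.05 changed sign in any alternative that gave it a value.

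At an unadjusted p under 0.05, 12 sets were higher in SOD1, against 7 without shared probe sets and 3 of 30 with gene means, and 8 to 13 with 1 array left out. The 5 lower became 2 with the deposited values, median centring, no variance trend or the Xist term, 3 without shared probe sets and 0 with gene means, and 1 to 5 with 1 array left out. With median centring 47 of 66 sets were higher (71.2%), against 41 (62.1%).

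The median of all members, 0.16, was 0.26 with median centring, 0.063 without shared probe sets and 0.041 to 0.19 with 1 array left out. That of autophagosome genes, 0.0047, was 0.11 with median centring, -0.077 with no filter, -0.034 with a filter at percentile 60, -0.027 with array weights, -0.089 with the Xist term, -0.068 without shared probe sets and -0.068 to 0.073 with 1 array left out. That of enzymes, 0.24, was 0.028 with the Xist term and 0.071 to 0.32 with 1 array left out, that of Grn and Tfeb, 0.97, was 0.062 without shared probe sets and 0.61 to 1.18 with 1 array left out, and that of the pump, 0.13, was -0.0049 to 0.25 with 1 array left out. Among the further genes, the autophagy median was -0.089 with median centring and -0.26 to -0.024 with 1 array left out, the pump median was 0.21 with the deposited values, 0.32 with median centring, 0.090 with the Xist term, 0.14 without shared probe sets and 0.023 to 0.082 with 1 array left out, the enzyme median, -0.19, was -0.28 to -0.081 with 1 array left out, and the regulator median, 0.10, was -0.029 with the Xist term and 0.021 to 0.10 with 1 array left out. Over all probe sets, 50 passed in the reported fit, against 87 with a pseudocount of 64, 106 with a filter at percentile 60, 100 with array weights, 76 with the replicate block, 17 of 13123 with gene means, 0 with no variance trend (3247 at an unadjusted p under 0.05), and 0 (without WT replicate 2, 2659 at an unadjusted p under 0.05) to 79 (without WT replicate 3) with 1 array left out. The cause of these shifts was not tested.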

Other observations

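The Lamp2 pattern was looked for in other genes after its values were seen. Of 5953 genes with more than 1 probe set tested, 34 (0.571%) had sets at an unadjusted p under 0.05 in both directions, Lamp2 and Becn1 among them. At an unadjusted p under 0.005 Lamp2 was the 1 gene left. That limit was set with the Lamp2 values known, so Lamp2 was certain to meet it. Nisch missed it narrowly, with sets at 1.25 (limma, unadjusted p = 0.00552) and -0.52 (limma, unadjusted p = 0.00240). That Lamp2 stood alone therefore depended on where the limit was put. Both limits are unadjusted and the count depends on how many sets a gene has, so it is given as a description of these 6 arrays.

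Another lysosomal gene among the 34 was Clcn3, which encodes a chloride and proton exchanger of endosomes and lysosomes. Its sets were at 0.51 ± 0.21 and -1.12 ± 0.43, with adjusted p of 0.287 and 0.267 (limma).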
